A study of Homo sapiens with 27 samples.

Results

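ZEB1 (ENSG00000148516) and ZEB2 (ENSG00000169554) are 2 of the 60619 genes counted in REH cells treated with LNA GapmeRs. They were chosen by the level of ZEB1, which was about 8 times lower with 1 of the GapmeRs against lnc-RTN4R-1 (GapmeR1) than with the other (GapmeR2), and ZEB2 was added as the paralog of ZEB1. The comparison of those 2 groups chose the genes, so it is given below as a description with no test. The question put to the counts was whether ZEB2 mRNA was higher where ZEB1 mRNA was lower.

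RNA was sequenced from 27 samples of REH, an established leukemia line of B-cell precursors that has the ETV6/RUNX1 fusion and has lost the wild-type allele of ETV6. LNA GapmeRs are antisense oligonucleotides whose ends carry locked nucleic acids and whose centre is DNA, and RNase H cuts RNA paired with that centre. Every GapmeR was given at 10 µM by gymnosis, an uptake without transfection reagent, and cells were harvested after 72 h. The 10 groups were medium alone (2 samples), a non-targeting GapmeR called NTC (3 samples), and GapmeR1 and GapmeR2 against each of 4 lncRNAs: lnc-NKX2-3-1 (2 and 3 samples), lnc-RTN4R-1 (3 and 3), lnc-TIMM21-5 (3 and 3) and lnc-ASTN1-1 (3 and 2). The 5 samples of medium and NTC together are the controls, and every comparison with controls shares them. All samples came from this single line, and the replicate number was taken to stand for the day of the experiment. The methods of the study place triplicates on different days, but the labels do not say that a number marks a day. The medium and lnc-NKX2-3-1 GapmeR1 groups had no replicate 3, and the lnc-ASTN1-1 GapmeR2 group no replicate 2.

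ZEB1 and ZEB2 are transcription factors with a homeodomain between 2 clusters of zinc fingers, which bind E-box sequences in promoters and mostly repress them with corepressors such as CtBP. They are best known for repressing epithelial genes such as CDH1 (E-cadherin) during epithelial-mesenchymal transition, and the miR-200 family of microRNAs represses both of them in turn. In blood cells, both genes take part in lymphoid and myeloid differentiation.

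Library totals ran from 14627110 to 22750945 counts, and 71.5% to 77.0% of the reads of a library were assigned to a gene. Each of the 8 GapmeRs left its own lncRNA below the lowest control in every one of its samples. The mean of that lncRNA was 13.1% to 52.2% of the control mean. Levels are given in CPM, which are counts scaled to the size of the library. lnc-NKX2-3-1 and lnc-TIMM21-5 were low even in the controls, at 0.764 and 1.57 CPM, so their percentages are imprecise. For lnc-RTN4R-1 it was 28.0% with GapmeR1 and 22.5% with GapmeR2, so the target itself was lower to a like degree with both. The libraries held B-cell precursor markers (9 of 10 above 1 CPM on average, with a summed level of 4824 to 6164 CPM, and VPREB1 at 0). T-cell markers summed to 0.0518 to 0.535 CPM, erythroid markers to 0 to 0.0574 CPM, fibroblast markers to 6.10 to 17.3 CPM and myeloid markers to 80.3 to 447 CPM, the last of these mostly MPO.

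The sequences of the GapmeRs are shown first, with the stretch of each ZEB transcript that came closest to pairing with them, because complementarity was not used to choose the genes. Each GapmeR was slid along the unspliced sense strand of every gene tested (GRCh38), and the longest unbroken run of pairing bases and the fewest mismatches over its full length were recorded. The GapmeRs for which a ZEB gene lay among the closest matches, and the other GapmeR1 whose samples differed in ZEB1, are written 5′ to 3′ below, and capitals mark the bases that pair in the site named after them.
lnc-RTN4R-1 GapmeR1 against ZEB1: GCATTCATGGGTTaaG
ZEB1 site: CagAACCCATGAATGC
lnc-RTN4R-1 GapmeR1 against ZEB2: gCATTCATGGGttAAg
ZEB2 site: aTTgcCCCATGAATGt
lnc-TIMM21-5 GapmeR1 against ZEB2: AATTTTGCATTtGGTA
ZEB2 site: TACCcAATGCAAAATT
lnc-NKX2-3-1 GapmeR1 against ZEB1: TGCTCTGTGCgGattg
ZEB1 site: gtgaCaGCACAGAGCA

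The ZEB1 gene lies at chr10:31318495-31529814 on the plus strand. Its site for lnc-RTN4R-1 GapmeR1 lies in an intron at chr10:31343798-31343813, 25303 bases from the start of the gene. The run of pairing bases was 13 of 16, and the full length held 2 mismatches, A14C and A15T, where positions count from 1 at the 5′ end of the GapmeR, the first letter is the base of the GapmeR and the last letter is the base that would pair with the site. Few genes came this close. A run of at least 13 bases was found in 46 of 14986 genes (0.307%), ZEB1 included, and at most 2 mismatches in 190 (1.27%). Of the 45 other genes with such a run, 12 were called lower than in controls (26.7%) and 1 higher, and of the 189 others with at most 2 mismatches 14 were called lower (7.41%) and 3 higher, whereas 0.581% of all genes scanned were called lower. Both sets of other genes include the only gene that paired over the full length of the GapmeR, which was called lower. The shares were not matched for gene length, and the cause of the difference was not tested.

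ZEB2, at chr2:144364364-144521057 on the minus strand, had no such site for that GapmeR. Its longest run was 10 bases, with 4 mismatches, in an intron at chr2:144476958-144476973, and 17.6% of genes had a run as long. With lnc-RTN4R-1 GapmeR2, the longest run was 10 bases and the fewest mismatches 4 in ZEB1 and in ZEB2 alike, and 22.5% and 59.1% of genes reached these values. Both genes are long, and a longer gene holds more windows. Only 5.55% of 15420 genes were at least as long as ZEB1 (211320 bases) and 8.87% as long as ZEB2 (156694 bases), against a median of 25092 bases.

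Counted by mismatches, the closest match of any GapmeR to either gene was to ZEB2. lnc-TIMM21-5 GapmeR1 differed from an intronic site at chr2:144379291-144379306 by 1 mismatch (T12G), and 37 of 14993 genes (0.247%) had at most 1 mismatch. Its run of 11 bases was reached by 16.2% of genes. Of the 36 other genes that close, 4 were called lower than in controls (11.1%, against 0.0734% of all genes scanned, again not matched for gene length). They include the 2 genes that paired over the full length of this GapmeR, of which 0 were called. ZEB2 was not lower with this GapmeR, as its levels below show. For lnc-NKX2-3-1 GapmeR1, the longest run in ZEB1 was 10 bases, in an exon at chr10:31526867-31526882. It held 5 mismatches over the full length, and 12.5% of 15190 genes had a run as long. The fewest mismatches in ZEB1 were 4, which 46.2% of genes reached.

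**Figure D1:**
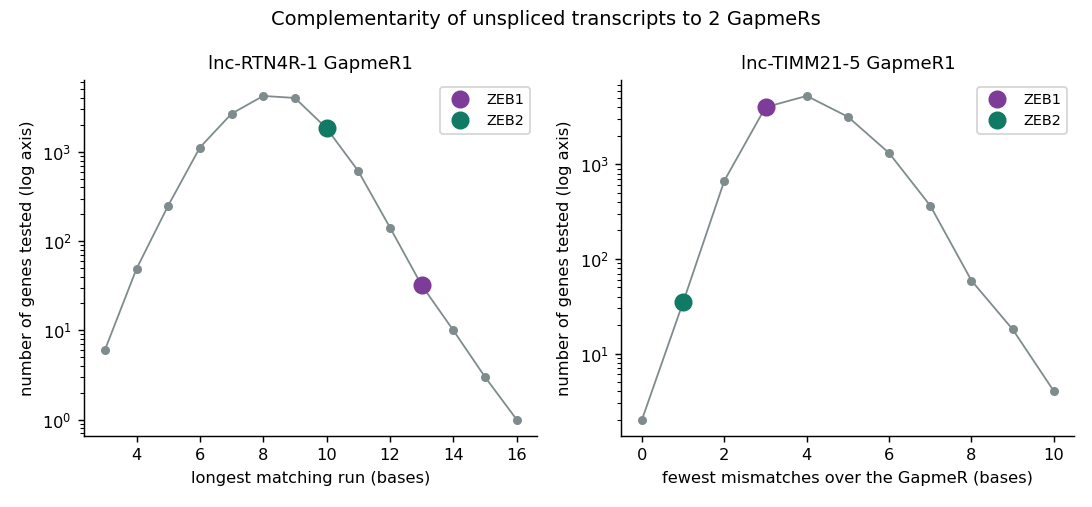
Genes (y axis, log scale) by the longest run of bases pairing with lnc-RTN4R-1 GapmeR1 (left, x axis in bases) and by the fewest mismatches over the full length of lnc-TIMM21-5 GapmeR1 (right, x axis in mismatches), with the bins of ZEB1 and ZEB2 marked. ZEB1, with a run of 13 bases, sits in the thin right tail of the left plot, ZEB2, with 1 mismatch, in the thin left tail of the right plot, and the other gene of each pair in the body of the distribution.

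ZEB1 was at 37.7 and 34.8 CPM in the samples with medium and at 39.9, 34.5 and 39.6 CPM with NTC, in order of replicate number, or 37.3 ± 2.57 CPM over the 5 controls (SD, n = 5). With lnc-RTN4R-1 GapmeR1 it was at 3.73, 2.77 and 3.94 CPM, from 71, 58 and 76 counts. With lnc-RTN4R-1 GapmeR2 it was at 28.8, 27.9 and 28.2 CPM, from 489 to 502 counts. All 6 samples lay below every control, and those of GapmeR1 stood far below those of GapmeR2. In bulk RNA, fewer cells that express a gene cannot be told apart from less RNA per cell.

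With lnc-NKX2-3-1 GapmeR1, ZEB1 was at 21.5 and 18.1 CPM. With lnc-NKX2-3-1 GapmeR2 it was at 36.9, 36.4 and 45.7 CPM. The first pair lay below every control and below every sample of lnc-RTN4R-1 GapmeR2, and the second group overlapped the controls. The 11 samples of the other GapmeRs, against lnc-TIMM21-5 and lnc-ASTN1-1, lay between 28.5 and 41.8 CPM.

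The order of the group means of ZEB1 thus began with lnc-RTN4R-1 GapmeR1 (3.48 ± 0.625 CPM, n = 3, 9.33% of the control mean), lnc-NKX2-3-1 GapmeR1 (19.8 ± 2.37 CPM, n = 2, 53.2%) and lnc-RTN4R-1 GapmeR2 (28.3 ± 0.445 CPM, n = 3, 75.9%). These 3 groups did not overlap each other. From lnc-RTN4R-1 GapmeR2 upward, each group overlapped the next, through lnc-ASTN1-1 GapmeR1 (33.2 CPM), lnc-TIMM21-5 GapmeR2 (35.4 CPM), medium (36.2 CPM), lnc-TIMM21-5 GapmeR1 (37.1 CPM), NTC (38.0 CPM), lnc-ASTN1-1 GapmeR2 (38.1 CPM) and lnc-NKX2-3-1 GapmeR2 (39.7 CPM).

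ZEB2 was at 176 and 156 CPM with medium and at 170, 173 and 181 CPM with NTC, or 171 ± 9.17 CPM over the controls (SD, n = 5). With lnc-RTN4R-1 GapmeR1 it was at 203, 188 and 204 CPM, and with lnc-RTN4R-1 GapmeR2 at 204, 179 and 185 CPM. Every sample of GapmeR1 exceeded every control, and so did 2 of 3 samples of GapmeR2.

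The highest ZEB2 levels of the series were the 2 samples of lnc-NKX2-3-1 GapmeR1, at 241 and 219 CPM. With lnc-NKX2-3-1 GapmeR2, ZEB2 was at 174, 165 and 199 CPM, which overlapped the controls. The remaining GapmeRs gave 167 to 196 CPM, among them lnc-TIMM21-5 GapmeR1, with its close match in a ZEB2 intron, at 182, 168 and 196 CPM. In the order of group means, which ran from 166 CPM with medium to 198 CPM with lnc-RTN4R-1 GapmeR1, each group overlapped the next. Only lnc-NKX2-3-1 GapmeR1, at 230 ± 15.9 CPM (n = 2), stood apart from its neighbour in this order.

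**Figure D2:**
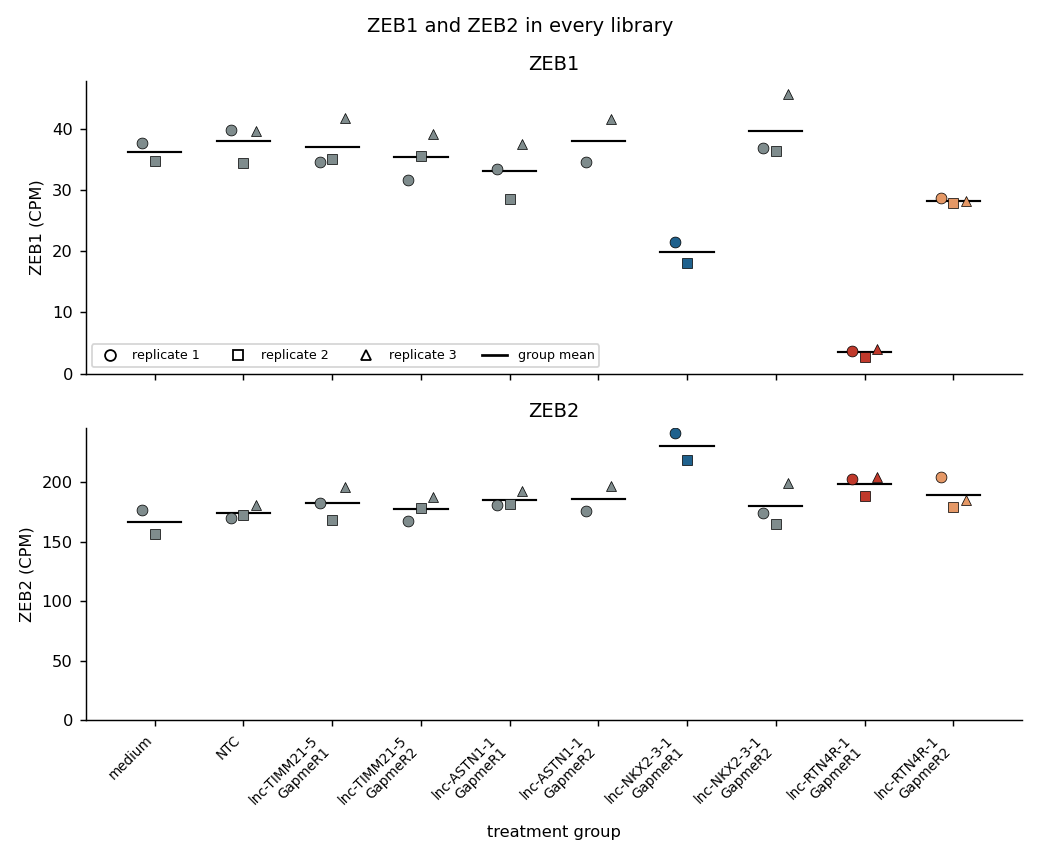
Level of ZEB1 (top) and ZEB2 (bottom) in CPM in each of the 27 libraries, by group, with marker shape for the replicate number and a line at each group mean. For ZEB1 the 3 libraries of lnc-RTN4R-1 GapmeR1 lie between 2.77 and 3.94 CPM and the 2 of lnc-NKX2-3-1 GapmeR1 at 18.1 and 21.5 CPM, while for ZEB2 the latter 2 are the highest.

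The first comparison asked which GapmeRs differed from the controls in ZEB1. With lnc-NKX2-3-1 GapmeR1, ZEB1 fell by 0.90 on the log2 scale (standard error 0.10, edgeR adjusted p = 5.40e-05), or 1.87-fold. In that comparison 17.6% of 15402 genes were called (10.2% lower and 7.41% higher), so a call was no rare event there. The other GapmeRs that the choice of ZEB1 did not use gave no call. Their log2 differences were 0.09 with lnc-NKX2-3-1 GapmeR2, -0.00 and -0.07 with lnc-TIMM21-5 GapmeR1 and GapmeR2, and -0.16 and 0.03 with lnc-ASTN1-1 GapmeR1 and GapmeR2 (adjusted p from 0.876 to 1.00). The interval that reached lowest (2 standard errors to each side) ran from -0.35 to 0.03, for lnc-ASTN1-1 GapmeR1, and the others lay between -0.25 and 0.28.

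As a description, ZEB1 was lower than in controls by a log2 difference of -3.42 with lnc-RTN4R-1 GapmeR1 (10.7-fold) and -0.40 with GapmeR2 (1.32-fold), and the 2 GapmeRs differed by -3.02, or 8.13-fold. The libraries just outside the low group were the 2 of lnc-NKX2-3-1 GapmeR1.

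The same comparison for ZEB2 was positive for all 8 GapmeRs, which share the 5 controls. With lnc-NKX2-3-1 GapmeR1, ZEB2 rose by 0.43 (standard error 0.07, edgeR adjusted p = 0.00141), or 1.35-fold. This call was lost without replicate 1 of that group (0.37, adjusted p = 0.0505), which leaves 1 sample assumed to vary like the controls. With lnc-RTN4R-1 GapmeR1 the log2 difference was 0.21 (standard error 0.06, interval 0.09 to 0.34), or 1.16-fold, with an unadjusted p of 0.00514 and an adjusted p of 0.163, in a comparison where 1.59% of 15186 genes were called. Fitted with the replicate number as a block, the difference was 0.20 and its adjusted p 0.000398, while the number of genes called went from 241 to 1426. Only 1 of 18 other settings, this block, gave a call, and the difference ran from 0.093 to 0.25 over them.

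For the other GapmeRs the log2 differences of ZEB2 were small. It was 0.15 with lnc-RTN4R-1 GapmeR2 (standard error 0.07, adjusted p = 0.248, and 0.14 with an adjusted p of 0.0369 under the replicate block, with 996 genes called without the block and 3364 with it). Without replicate 1 of that group it was 0.081. Over 18 other settings it ran from 0.029 to 0.19, with a call in 1 of them, the block. With lnc-NKX2-3-1 GapmeR2 it was 0.07, with lnc-TIMM21-5 GapmeR1 and GapmeR2 0.09 and 0.05, and with lnc-ASTN1-1 GapmeR1 and GapmeR2 0.11 and 0.12 (adjusted p from 0.868 to 1.00). The interval for lnc-TIMM21-5 GapmeR1 ran from -0.05 to 0.23, so a ZEB2 lower by more than 0.05 on this scale lay outside it.

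The shares of genes called in these fits were 6.62% with lnc-RTN4R-1 GapmeR2, 0.079% and 0.0593% with lnc-TIMM21-5 GapmeR1 and GapmeR2, and 0.718% and 0.013% with lnc-ASTN1-1 GapmeR1 and GapmeR2. With lnc-NKX2-3-1 GapmeR2 edgeR called 0% of 15126 genes, against 615 at an unadjusted p under 0.05 and 9 called by DESeq2. The p-values of a gene over the comparisons with controls were not adjusted for the number of GapmeRs.

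**Figure D3:**
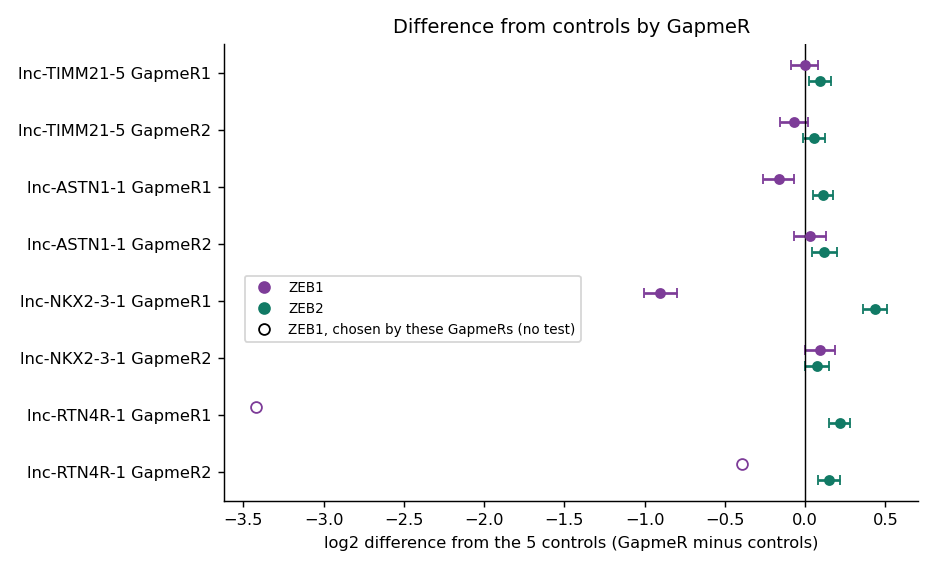
Log2 difference of ZEB1 and ZEB2 from the 5 controls for each of the 8 GapmeRs, with bars of the standard error to each side. These bars are narrower than the intervals in the text, which span 2 standard errors to each side. No bar is drawn for ZEB1 with the lnc-RTN4R-1 GapmeRs, whose values chose the genes. ZEB1 lies at -3.42 and -0.90 with GapmeR1 of lnc-RTN4R-1 and GapmeR1 of lnc-NKX2-3-1, where ZEB2 lies at 0.21 and 0.43.

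Between the 2 GapmeRs against lnc-NKX2-3-1, both genes differed, and in opposite directions. ZEB1 was lower with GapmeR1 by a log2 difference of -0.99 (standard error 0.13, edgeR adjusted p = 0.00104), with 13% of 15375 genes called. ZEB2 was higher by 0.36 (standard error 0.10, adjusted p = 0.0390, and 0.44 with an adjusted p of 2.51e-28 under the replicate block, with 1992 and 6424 genes called). The call for ZEB2 was lost without replicate 1 of GapmeR1 (0.30, adjusted p = 0.259), replicate 2 of GapmeR1 (0.43, 0.125), replicate 1 of GapmeR2 (0.34, 0.129) or replicate 2 of GapmeR2 (0.30, 0.0845).

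The pairs of GapmeRs against lnc-TIMM21-5 and lnc-ASTN1-1 showed no call for either gene. For ZEB1 the log2 differences of GapmeR1 from GapmeR2 were 0.07 (interval -0.14 to 0.28) and -0.20 (-0.47 to 0.07), and for ZEB2 they were 0.04 (-0.12 to 0.19) and -0.01 (-0.18 to 0.16). In these fits 0.0784% and 0.146% of genes were called. For lnc-RTN4R-1, which chose the genes, ZEB2 was higher with GapmeR1 by 0.07, or 1.05-fold, and the groups overlapped. NTC against medium gave 0.07 for both genes (edgeR adjusted p = 0.952 for ZEB1 and 0.945 for ZEB2), with 0% of 15100 genes called by edgeR, 670 at an unadjusted p under 0.05 and 0 by DESeq2. Under the replicate block these differences were 0.037 for ZEB1 and 0.044 for ZEB2.

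ZEB1 was far lower with lnc-RTN4R-1 GapmeR1 than with lnc-NKX2-3-1 GapmeR1, and ZEB2 was the higher of the pair with the latter. This comparison was added after the values of ZEB2 had been seen. The log2 difference of ZEB2 was 0.22 in favour of lnc-NKX2-3-1 GapmeR1 (standard error 0.08, edgeR adjusted p = 0.0848, with 15.2% of genes called), 0.23 with an adjusted p of 8.43e-05 under the replicate block (2334 and 5225 genes called), and 0.23 with an adjusted p of 0.0295 without replicate 3 of lnc-RTN4R-1 GapmeR1. As an order of the estimates only, the larger log2 difference of ZEB2 from controls stood beside the smaller one of ZEB1. In ZEB2 the 2 groups were called different in 2 of 12 other settings and not in the test used.

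To set the levels of the 2 genes side by side, counts were divided by the length of the canonical transcript (5937 bases for ZEB1 and 9265 for ZEB2), which gives RPKM, the CPM per kilobase of transcript. In the controls the level of ZEB2 was 2.95 ± 0.176 times that of ZEB1 (SD, n = 5, range 2.73 to 3.21). With lnc-RTN4R-1 GapmeR1 it was 33.2 to 43.6 times (37.2 ± 5.56, n = 3), with lnc-NKX2-3-1 GapmeR1 7.19 and 7.73 times, and with lnc-RTN4R-1 GapmeR2 4.29 ± 0.233 times (n = 3). None of these groups overlapped the controls.

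The summed RPKM of both genes moved less. It was 24.8 ± 1.28 RPKM in the controls (SD, n = 5, range 22.8 to 26.2), of which ZEB1 was 25.4%. With lnc-RTN4R-1 GapmeR1 it was 22.0 ± 1.07 RPKM (n = 3, range 20.8 to 22.7), of which ZEB1 was 2.65%, and with lnc-NKX2-3-1 GapmeR1 28.2 ± 2.12 RPKM (26.7 and 29.7), of which ZEB1 was 11.8%. The sum with the former lay below every other library, although the nearest control was close, and the sum with the latter lay above every control. These values depend on the length used. Divided by all exonic bases of each gene (8650 and 26151), the control ratio was 1.52, and the sums were 10.9 RPKM in controls, 7.98 RPKM with lnc-RTN4R-1 GapmeR1 and 11.1 RPKM with lnc-NKX2-3-1 GapmeR1. Proteins were not measured.

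**Figure D4:**
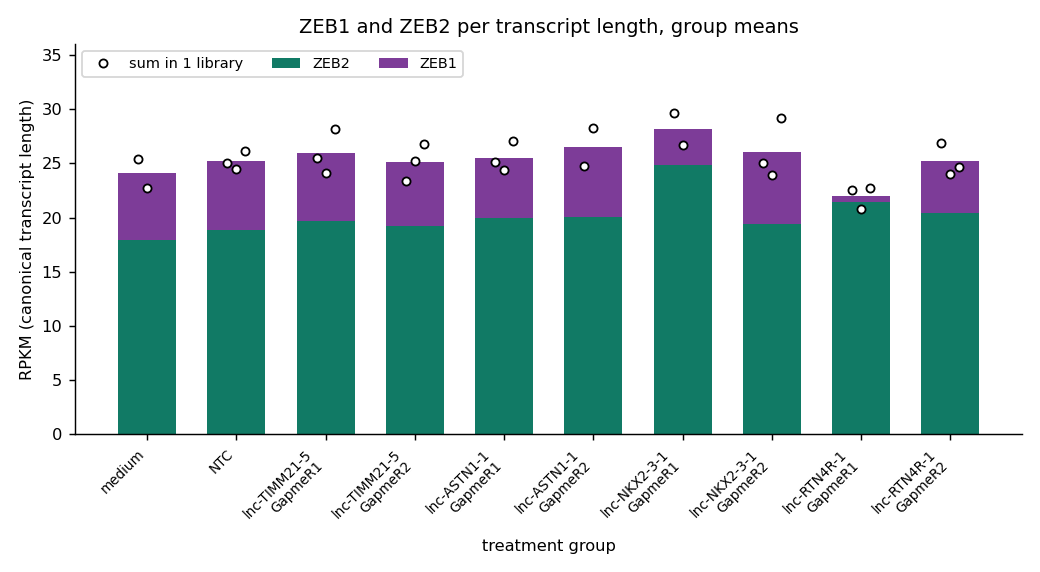
RPKM of ZEB1 and ZEB2 by group (mean of the libraries, canonical transcript length), stacked, with each library's sum as a point. With lnc-RTN4R-1 GapmeR1 the sum is 22.0 RPKM, of which ZEB1 is 2.65%, against 24.8 RPKM and 25.4% in the controls.

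Log2 CPM of ZEB1 and ZEB2 were set against each other across the 24 samples other than those with lnc-RTN4R-1 GapmeR1, whose ZEB1 stood apart. The samples of lnc-RTN4R-1 GapmeR2, whose ZEB1 took part in the choice, were kept here and within each replicate number. Samples of a group were shuffled as if independent. The p-values are therefore a description and not a test. Pearson r was -0.48 (permutation p = 0.0206, 0.0687 adjusted over 10 relations) and Spearman rho -0.07 (permutation p = 0.743, adjusted 0.743). Without the 2 samples farthest from the median of ZEB1, which were both samples of lnc-NKX2-3-1 GapmeR1, r was 0.17 (permutation p = 0.457, adjusted 0.508) and rho 0.21 (p = 0.358, adjusted 0.447). The negative r over the 24 samples therefore rested on those 2 samples. All replicate numbers were pooled there, and both genes shared a shift by replicate number, given below. Leaving out lnc-NKX2-3-1 GapmeR1 within replicate 1 or replicate 2 was not done, so this holds for the pooled samples only.

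Within replicate 1 (9 samples) r was -0.91 (exact permutation p = 0.0129, adjusted 0.0665) and rho -0.53 (exact p = 0.148, adjusted 0.246). Within replicate 2 (8 samples) r was -0.92 (exact permutation p = 0.0133, adjusted 0.0665) and rho -0.74 (exact p = 0.0458, adjusted 0.115). Each of these held a sample of lnc-NKX2-3-1 GapmeR1. Within replicate 3 (7 samples), which held none, r was 0.60 (exact permutation p = 0.177, adjusted 0.253) and rho 0.71 (exact p = 0.0881, adjusted 0.176). The 2 genes also shared a shift by replicate number. The mean deviation of replicate 2 from its group means was -0.11 on the log2 scale for ZEB1 and -0.06 for ZEB2, and that of replicate 3 was 0.14 and 0.07.

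**Figure D5:**
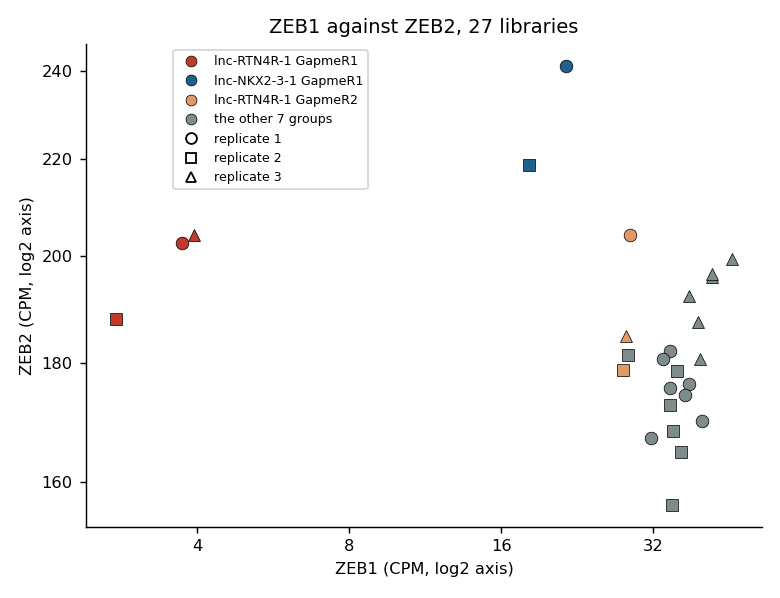
Level of ZEB2 in CPM (y axis) against that of ZEB1 in CPM (x axis, log scale) in each of the 27 libraries. The 2 libraries of lnc-NKX2-3-1 GapmeR1 sit at 18.1 and 21.5 CPM of ZEB1 with the highest ZEB2, the 3 of lnc-RTN4R-1 GapmeR1 sit at 2.77 to 3.94 CPM with ZEB2 of 188 to 204 CPM, and the others form one cloud.

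Next, the loci themselves were examined. ZEB1-AS1, a lncRNA gene that overlaps the start of ZEB1 on the other strand (chr10:31206278-31320447), was at 14.6 ± 1.70 CPM in the controls (n = 5). It was at 14.9, 13.0 and 13.3 CPM with lnc-RTN4R-1 GapmeR1, within the controls' range of 12.2 to 16.5 CPM (log2 difference -0.09, edgeR adjusted p = 0.924), where ZEB1 itself was at 9.33% of its control mean. ZEB1-AS1 was at 12.5, 11.4 and 11.2 CPM with lnc-RTN4R-1 GapmeR2 (80.1% of the control mean), without a call. With lnc-NKX2-3-1 GapmeR1 it was at 10.9 and 10.2 CPM and fell by 0.46 (standard error 0.13, adjusted p = 0.0280). That call was lost without replicate 1 (adjusted p = 0.128) or replicate 2 (0.223) of that group and without NTC replicate 1 (0.0586), and with NTC alone as controls (0.0653).

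Reads on the strand opposite to ZEB1 over its exons were few, 16 to 46 per library. With lnc-RTN4R-1 GapmeR1 they were 36, 25 and 34, or 46.3 for every 100 counts of ZEB1, against 5.09 in the controls, so the number on that strand stayed in the range of the other libraries while the counts of ZEB1 were low. The antisense gene at ZEB2, ZEB2-AS1 (chr2:144517978-144521477), was at 0.103 to 1.10 CPM in all libraries. The processed pseudogene ZEB2P1 on chromosome 4 had 0 counts in every library.

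Of the 8 protein-coding genes within 1 Mb of ZEB1, 7 were tested, and 0 were called with lnc-RTN4R-1 GapmeR1, where 1.59% of all genes were called. With lnc-NKX2-3-1 GapmeR1, 1 of the 7 was called, where 17.6% of all genes were called. This was ZNF438, a zinc-finger gene, which fell from 6.40 to 3.74 CPM (log2 difference -0.77, standard error 0.16, edgeR adjusted p = 0.00474, and 0.0930 without replicate 1 of that group).

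Both protein-coding genes within 1 Mb of ZEB2 fell with lnc-NKX2-3-1 GapmeR1, where ZEB2 rose and 10.2% of all genes were called lower. GTDC1, a glycosyltransferase-like gene, fell from 25.3 ± 0.971 CPM in the controls to 7.70 ± 0.329 CPM (log2 difference -1.71, standard error 0.10, edgeR adjusted p = 2.87e-07). ARHGAP15, a GTPase-activating protein for Rac, fell from 83.6 ± 5.54 to 34.3 ± 1.63 CPM (-1.28, standard error 0.09, adjusted p = 7.12e-07). Both calls held in all 17 settings in which they were computed. With lnc-RTN4R-1 GapmeR2, where 6.62% of all genes were called in either direction, 1 of these 2 genes was also called lower. With lnc-RTN4R-1 GapmeR1, GTDC1 was at 24.3 CPM (-0.06, adjusted p = 0.924) and ARHGAP15 at 68.7 CPM (-0.28, standard error 0.07, adjusted p = 0.0649, and 6.77e-05 under the replicate block).

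The partners and targets of the ZEB proteins were then counted in the 2 groups with the lowest ZEB1. Calls in these lists were not limited to those groups. With lnc-RTN4R-1 GapmeR2, where 6.62% of genes were called, 2 of 4 mesenchymal genes tested, 1 of 2 lymphoid targets and 1 of 10 TGF-beta and BMP genes were higher. With it, 2 of 13 corepressors and cofactors and 1 of 7 E-box factors and inhibitors were lower. With lnc-RTN4R-1 GapmeR1, 1.01% of all genes tested were called higher and 0.579% lower. Of 13 corepressors and cofactors, all of them tested, 1 was called higher and 0 lower (median log2 difference -0.00, as over all genes). The member called was SMAD3, a TGF-beta signal transducer that binds ZEB proteins, at 50.7 ± 5.48 CPM against 36.9 ± 4.33 CPM in the controls (0.46, standard error 0.10, edgeR adjusted p = 0.0396). Its call was lost without any single one of the samples but NTC replicate 3 (adjusted p from 0.0710 to 0.168) and with NTC alone as controls (0.239).

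Of the epithelial and polarity genes that ZEB1 is known to repress, 1 of 16 reached the level needed for a test. CDH1 was at 0 CPM with lnc-RTN4R-1 GapmeR1 and at a mean of 0.0109 CPM in the controls, EPCAM, GRHL2 and OVOL2 were at 0 in both, and the tested member, LLGL2, was at 15.3 against 13.1 CPM (log2 difference 0.22, adjusted p = 0.856). Of the miR-200 host and hairpin genes, 0 of 6 were tested, with a summed level of 0.0523 CPM with this GapmeR and 0.0444 CPM in the controls. The libraries were not made to capture mature microRNAs.

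No other list held a call with lnc-RTN4R-1 GapmeR1 apart from the B-cell precursor markers. These lists were the E-box factors and their inhibitors (7 of 12 tested, median log2 difference 0.05), TGF-beta and BMP signalling (10 of 11, 0.11), mesenchymal genes (4 of 6, 0.04) and lymphoid targets (2 of 4, 0.57). Among the members of these lists without a call, the largest differences were those of GATA3, a T-cell transcription factor that ZEB1 represses (1.38 against 0.754 CPM, log2 difference 0.86, standard error 0.30, edgeR adjusted p = 0.307), ID2, an inhibitor of E proteins (17.0 against 10.1 CPM, 0.75, adjusted p = 0.205) and SNAI1, another E-box repressor (7.10 against 4.88 CPM, 0.54, adjusted p = 0.131). These 3 were chosen after their values were seen. Of the B-cell precursor markers, CD79A, a chain of the B-cell receptor complex, was called higher (742 ± 41.1 against 591 ± 13.5 CPM, 0.33, standard error 0.06, adjusted p = 0.0150). That call was lost without NTC replicate 2 (0.0535) and without replicate 2 (0.0727) or 3 (0.0733) of lnc-RTN4R-1 GapmeR1, and with NTC alone as controls (0.105).

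With lnc-NKX2-3-1 GapmeR1, where 17.6% of all genes were called, more members of these lists were called. Of the 13 corepressors and cofactors 3 were higher (KDM1A, SMAD2 and SMAD4) and 2 lower (SMAD3 and CTBP1), with a median log2 difference of 0.10 against 0.00 over all genes. SMAD3 fell to 18.7 ± 1.27 CPM (log2 difference -0.97, standard error 0.12, edgeR adjusted p = 9.88e-05), the opposite direction to that with lnc-RTN4R-1 GapmeR1 against the same controls. Of 7 E-box factors and inhibitors tested, 3 were higher (TCF3, TCF12 and ID3) and 0 lower. Of 4 mesenchymal genes tested, 2 were higher (ITGA5 and S100A4), and ITGA5, the fibronectin receptor chain, rose from 43.4 ± 4.94 to 82.2 ± 9.62 CPM (0.93, standard error 0.11, adjusted p = 5.33e-05). In TGF-beta and BMP signalling, 1 of 10 was higher (TGFB1) and 0 were lower. The 1 epithelial gene and the 2 lymphoid targets tested were not called. Genes named here other than SMAD3 were chosen after their values were seen. The calls of SMAD3 and ITGA5 held in all 17 settings. Those of KDM1A, SMAD2, SMAD4, CTBP1, TCF3, TCF12, ID3 and S100A4 were lost without replicate 1 of lnc-NKX2-3-1 GapmeR1 (adjusted p from 0.0604 to 0.109), and these and TGFB1 without replicate 2 (0.0605 to 0.424). SMAD4 was also lost without either sample of medium, NTC replicate 1 or NTC replicate 2 (0.0586 to 0.0975), KDM1A and SMAD2 without medium replicate 1 (0.0609 and 0.0523) and without NTC replicate 1 (0.0637, KDM1A) or 2 (0.0542, SMAD2), and ID3 without medium replicate 1 (0.0929), NTC replicate 1 (0.0689) or 3 (0.110). Of the 17 settings, ID3 was called in 6, SMAD4 in 9, SMAD2 in 12 and KDM1A and S100A4 in 13, and DESeq2 did not call ID3 (adjusted p = 0.0650).

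Marker genes moved in the same comparison. Of 9 B-cell precursor markers tested, 2 were called higher (RAG1 and MME) and 1 lower (EBF1), the single myeloid marker tested, MPO, was higher (178 against 100 CPM, log2 difference 0.84, edgeR adjusted p = 0.00145) and the single fibroblast marker tested, COL1A1, was lower (6.31 against 9.79 CPM, -0.63, adjusted p = 0.0471). The summed level of the B-cell precursor markers was 6016 CPM against 5472 CPM in the controls, CD14, a monocyte marker, was at 0.488 against 0.347 CPM, and CD3D and CD3G were at 0 in both. Without 1 sample, the call of COL1A1 was lost in 4 cases (lnc-NKX2-3-1 GapmeR1 replicate 1 or 2, NTC replicate 1 or 2, adjusted p from 0.0838 to 0.246) and in one fit of all samples (0.229), that of MME without replicate 1 (0.0912) or 2 (0.180) of that group, that of EBF1 without replicate 1 (0.0724) and that of RAG1 without replicate 2 (0.137), and that of MPO was lost with NTC and the GapmeRs of other lncRNAs as the reference (0.709). Markers also moved with lnc-RTN4R-1 GapmeR2. The myeloid markers summed to 344 CPM there against 100 CPM in the controls, and the 1 tested was called higher (log2 difference 1.78). Of 9 B-cell precursor markers tested there, 1 was called lower. The part of the marker genes in the ZEB1 and ZEB2 differences was not tested.

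Finally, the genes whose log2 CPM was most like that of each ZEB gene over the 27 libraries were listed among 16268 genes, as a description. For ZEB1 they were UBE2E2 (r = 0.98), AGPAT3 (0.96), PPFIA1 (0.96), RERE (0.96) and RBM28 (0.96), each lower on average with lnc-RTN4R-1 GapmeR1 than with lnc-NKX2-3-1 GapmeR1 or in the controls. The libraries of lnc-RTN4R-1 GapmeR1, where ZEB1 stood apart, entered this ranking, so it favoured genes that were low there. UBE2E2 was at 15.1 CPM with that GapmeR, 28.1 CPM with lnc-NKX2-3-1 GapmeR1 and 36.9 CPM in the controls, and RBM28 at 20.9, 78.2 and 82.5 CPM. The longest runs of these genes that paired with lnc-RTN4R-1 GapmeR1 were 12, 12, 13, 15 and 13 bases in that order, against 13 in ZEB1. Their fewest mismatches were 4, 2, 3, 1 and 3, against 2 in ZEB1. A run of at least 13 bases was found in 0.307% of genes scanned, and at most 4 mismatches in 52.8%. The part of pairing in these levels was not tested. For ZEB2 the most alike were DIPK2A (r = 0.90), VEZF1 (0.88), ZNF281 (0.85), ZNF280B (0.85) and STING1 (0.85), and their longest runs were 9, 8, 7, 8 and 6 bases, against 10 in ZEB2. DIPK2A was at 21.4 CPM with lnc-RTN4R-1 GapmeR1, 25.3 CPM with lnc-NKX2-3-1 GapmeR1 and 16.3 CPM in the controls.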

How the data were processed

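RNA sequencing reads of 27 REH samples were aligned by the authors to hg38 with STAR. The deposited values are raw counts per gene with no normalisation, for both strands together and for each strand. The strand column with 95.2% to 95.4% of stranded counts was used. Reads in several places were not counted, and the rows that name no gene held 23.0% to 28.5% of reads and were left out. The labels describe stranded, ribodepleted total RNA, whereas the methods describe poly-A selection, which bears on how much unspliced RNA could be seen. The annotation release behind the counts is not given in the sources used here. GENCODE v44 (GRCh38) matched 56434 of 60619 identifiers. GapmeR sequences came from the supplement of the study and sites from GRCh38. The gene of each lncRNA was taken from the transcripts the study lists.

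Counts were fitted over all genes with edgeR (4.0.16) quasi-likelihood F tests (TMM, robust, filterByExpr with minimum count 10 and minimum total 15, no covariate) in R (4.3.3), each comparison on its own samples, with Benjamini-Hochberg adjustment and a threshold of 0.05. CPM were scaled by TMM, and a prior count of 2 was added for log2 CPM. At 14627110 to 22750945 counts a library, 58 to 76 counts of ZEB1 set the precision of its lowest group. The scripts were tested on simulated data. Correlations used permutation, which shuffled samples without regard to their groups.

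Genes, lists and tests were chosen with earlier results of these data known. The genes named are ZEB1 and ZEB2, their antisense genes, protein-coding genes within 1 Mb, list members past the threshold with lnc-RTN4R-1 GapmeR1, and the 5 genes most like each. Other list members are named after their values were seen. Alternatives were DESeq2 (1.42.0), RLE normalisation, other filters, other references, one fit of all samples, the replicate block, unstranded counts and each sample left out. Since the methods place replicates on different days, the numbers were taken to pair samples. Deviations from group means correlated at a mean of 0.263 (range -0.0349 to 0.505, 109 pairs) for the same number and -0.130 (218 pairs) for different ones. No 2 samples of a group agreed within sampling noise (chi-square per degree of freedom 3.28 to 16.1 over 24 pairs).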

Additional observations from a re-analysis of the deposited data

Results flagged for a closer look

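The 2 GapmeRs against lnc-NKX2-3-1 differed from each other in both genes, by a test of the difference itself. For ZEB1 the log2 difference of GapmeR1 from GapmeR2 was -0.99 (edgeR adjusted p = 0.00104, lower in 2 of 2 samples than in all 3 of the other group). For ZEB2 it was 0.36 (adjusted p = 0.0390, higher in 2 of 2 samples). The lncRNA itself was at 15.4% of its control mean with GapmeR1 and 15.1% with GapmeR2. It was low throughout, at 0.764 CPM in the controls (range 0.326 to 1.26) and 0.118 and 0.115 CPM with the 2 GapmeRs. These percentages are therefore imprecise. Among the 5 controls, no sample of either gene passed Dixon's limit of 0.71 for the gap to its neighbour over the range of log2 CPM. The lowest ZEB2 control, medium replicate 2 at 156 CPM, reached 0.574. So few samples allow only a coarse check.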

How the results depend on the processing

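Of 243 recomputed results for ZEB1 and ZEB2 under other settings, 224 were kept, 3 gained a call, 2 lost one and 14 changed sign. With 1 sample left out, 160 of 183 were kept. Kept means the same direction and side of the threshold. For lnc-RTN4R-1 results given without a test, it means a shift smaller than the pooled within-group SD (0.169 log2 for ZEB1, 0.0948 for ZEB2). Correlations were counted by an unadjusted permutation p under 0.05, and Pearson r over all 27 samples is among the 2 losses. With NTC and the GapmeRs of other lncRNAs as the reference, which then holds the low ZEB1 of lnc-RTN4R-1 GapmeR1, ZEB1 with lnc-NKX2-3-1 GapmeR1 was at -0.59 (adjusted p = 0.585). Differences near 0 turned there: ZEB1 to 0.18 (lnc-ASTN1-1 GapmeR1), 0.38 and 0.31 (lnc-TIMM21-5 GapmeR1 and GapmeR2), ZEB2 to -0.026 and -0.017 (lnc-ASTN1-1 GapmeR1 and GapmeR2), -0.039 (lnc-NKX2-3-1 GapmeR2), -0.058 and -0.097 (lnc-TIMM21-5 GapmeR1 and GapmeR2), and GTDC1 with lnc-RTN4R-1 GapmeR1 to 0.16. ZEB1 with lnc-TIMM21-5 GapmeR1 was at 0.00088 with at least 10 counts in every sample and 0.0024 in one fit of all samples. In replicates 1 and 2 alone, an alternative added after seeing the data, ZEB1 was at -0.085 with lnc-ASTN1-1 GapmeR2 and -0.00059 with lnc-NKX2-3-1 GapmeR2. Over all 27 samples Pearson r was -0.36. The cause of these changes was not tested.

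With the replicate block, which pairs samples by replicate number, ZEB2 gained calls with lnc-RTN4R-1 GapmeR1 (0.20), with lnc-RTN4R-1 GapmeR2 (0.14) and between lnc-NKX2-3-1 GapmeR1 and lnc-RTN4R-1 GapmeR1 (0.23). ZEB1 with lnc-ASTN1-1 GapmeR2 turned to -0.062 and ZEB2 between the lnc-ASTN1-1 GapmeRs to 0.0036, and no other call of either gene changed. With 1 sample left out, ZEB1 ranged from -0.024 to 0.15 between the lnc-TIMM21-5 GapmeRs, from -0.11 to 0.16 with lnc-ASTN1-1 GapmeR2, from -0.025 to 0.15 with lnc-NKX2-3-1 GapmeR2, from -0.10 to 0.043 with lnc-TIMM21-5 GapmeR1 and from -0.15 to 0.0024 with lnc-TIMM21-5 GapmeR2. ZEB2 ranged from -0.018 to 0.16 for NTC against medium, from -0.086 to 0.071 between the lnc-ASTN1-1 GapmeRs, from -0.017 to 0.090 between those against lnc-TIMM21-5, from 0.30 to 0.44 between those against lnc-NKX2-3-1, from 0.15 to 0.29 between lnc-NKX2-3-1 GapmeR1 and lnc-RTN4R-1 GapmeR1, from 0.37 to 0.50 with lnc-NKX2-3-1 GapmeR1 and from -0.012 to 0.13 with lnc-NKX2-3-1 GapmeR2.

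Counts of genes called depended far more on the setting. They ran from 99 to 1426 for lnc-RTN4R-1 GapmeR1, 529 to 3364 for lnc-RTN4R-1 GapmeR2, 1002 to 5611 for lnc-NKX2-3-1 GapmeR1, up to 6424 between the lnc-NKX2-3-1 GapmeRs (1992 in the test used), 62 to 731 and 0 to 33 for lnc-ASTN1-1 GapmeR1 and GapmeR2, 5 to 424 and 4 to 50 for lnc-TIMM21-5 GapmeR1 and GapmeR2, and 0 to 412 for lnc-NKX2-3-1 GapmeR2.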
